A study of Mus musculus with 25 samples.

Results

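The genes examined here were the protein-coding neighbours of Gpx4 on mouse chromosome 10. They were all protein-coding genes of the GENCODE M21 annotation that overlapped chr10:75047166-85056439 (GRCm38), which is 5 Mb on either side of Gpx4, and that had a transcript in the expression file. Gpx4 itself, a few single genes (Tdg, 1190007I07Rik, Gm4924, Pfkl, S100b, Txnrd1 and Lss) and symbols starting with Col, Nduf, Uqcr, Atp5, Hcn, Rpl or Rps were left out. This gave 257 genes of 35890 with a transcript in the file, of which 21821 were protein-coding. The rule itself uses only positions and names, but it was drawn up with results of these data known. Of the genes it leaves out, 4 (Gpx4, Tdg, 1190007I07Rik and Gm4924) were called for genotype, and Pfkl was called for diet.

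Expression was measured in heart (myocardial) tissue of 25 male mice, in 5 groups of 5, by stranded polyA RNA sequencing. GPx4+/- mice carry 1 disrupted copy of Gpx4 in all cells, in a line kept by repeated crossing to C57BL6/J, and the WT mice were their littermates. At 8 to 10 weeks of age the mice were put for 16 weeks on normal chow (WT CNTL and GPx4+/- CNTL) or on a high fat, high sucrose diet (WT HFHS and GPx4+/- HFHS). The WT HFHS + Carnosine mice had the same diet, with 80 mM carnosine in the drinking water from week 7. The paper states that mice were killed after a fast and an injection of either dextrose or saline. The sample labels do not say which injection each mouse had. GPx4+/- mice given both the diet and carnosine were not analysed here. The genotype and diet comparisons rested on the 20 mice without carnosine, and the carnosine comparison on the 10 WT HFHS mice with and without it. The WT HFHS mice therefore entered the genotype comparison on HFHS, the diet comparison in WT and the carnosine comparison, and these are not independent of each other.

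Gpx4 encodes a selenoenzyme that reduces lipid hydroperoxides within membranes and so protects cells from ferroptosis, a form of death driven by iron and lipid peroxidation. Its neighbours have no shared role, but they sit on the same chromosome. In a mouse line made by gene targeting, the DNA that flanks the altered gene is passed on with it, so genes that lie close by can come from another strain than the rest of the genome, or lie within reach of the targeting construct. Genes at this locus are therefore read beside the targeted gene in such lines.

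Values are TPM, the share of a library's transcripts after correction for transcript length, as deposited. They were summed per gene and divided by 1 factor per library, the median ratio of its genes to their typical level, and are called scaled TPM. Levels can therefore be compared between genes. Tests were made with limma on log2(scaled TPM + 0.5), a scale on which low genes change by less than they did, for the 11977 genes with a mean of at least 1, and "called" means a Benjamini-Hochberg adjusted p under 0.05 over all of them. Single values were also compared by a two-sided exact permutation test of 5 mice against 5, whose smallest possible p is 0.00794. Apart from the genes nearest to Gpx4, the genes given this test were named for their small limma p, so it restates the same values, is not corrected for that choice and adds no support. Nothing in the labels says which mice shared a cage or litter, so the p-values measure the spread between these mice. Gpx4 was between 590.6 and 777.7 scaled TPM in the 15 WT mice and between 250.5 and 382.8 in the 10 GPx4+/- mice. Cardiomyocyte markers summed to between 3.92e+04 and 4.82e+04 in every library. Markers of atrial cardiomyocytes were over 4 times their median of 138 in 5 libraries (WT CNTL 3, GPx4+/- CNTL 1 and 2, GPx4+/- HFHS 4 and WT HFHS + Carnosine 2), the most in GPx4+/- CNTL 1 at 7444. In bulk tissue, fewer cells of a type and less RNA per cell cannot be told apart.

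The neighbours of Gpx4 ranged from silent genes to some of the most abundant transcripts of the heart. Of the 257 genes, 33 were listed at 0 in every library, 70 were above 0 with a mean under 1, and 154 had a mean of at least 1 and were tested. Among those tested, 70 had a mean of at least 10, 10 of at least 100 and 5 of at least 500. The median of the 154 was 8.36 scaled TPM, beside 9.05 over all genes tested, and 136 of them were at 1 or more in all 25 libraries. The genes together took between 0.562% and 0.778% of a library's TPM.

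The highest was Bsg, which encodes basigin, the partner that brings lactate transporters to the cell surface. It lay 0.335 Mb proximal to Gpx4 at a mean of 1049 scaled TPM (range 852.4 to 1173 over the 25 mice). Chchd10, a protein of the mitochondrial intermembrane space, followed at 883.7 (751.8 to 987.8), 4.11 Mb proximal. The translation elongation factor Eef2 stood at 640.2 (536.2 to 699.4), the Groucho-family corepressor Aes at 577 (513.7 to 675.1), and the polyamine regulator Oaz1 at 513.9 (441.9 to 611.8). Oaz1 is nearly identical over 65.6% of its transcript to a processed pseudogene, Oaz1-ps, listed at 54.9, so reads could have been split between them. D10Jhu81e, which encodes a mitochondrial protein, was sixth at 335.5.

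The silent genes were not spread evenly. All 10 olfactory receptor genes, 4 vomeronasal receptor genes and 3 keratin-associated protein genes were under the limit for testing, and 5, 2 and 3 of them were at 0 in every library. Of 33 genes with a Gm number, 3 were tested and 21 were at 0 in every library. Most of the genes at 0 lay in 1 block between 2.18 Mb (Gm3285) and 2.36 Mb (Gm19402) proximal to Gpx4. The tested genes numbered 67 on the proximal side and 87 on the distal side, and were densest close to Gpx4, with 41 within 0.5 Mb of it and 23 more within 1 Mb.

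**Figure D1:**
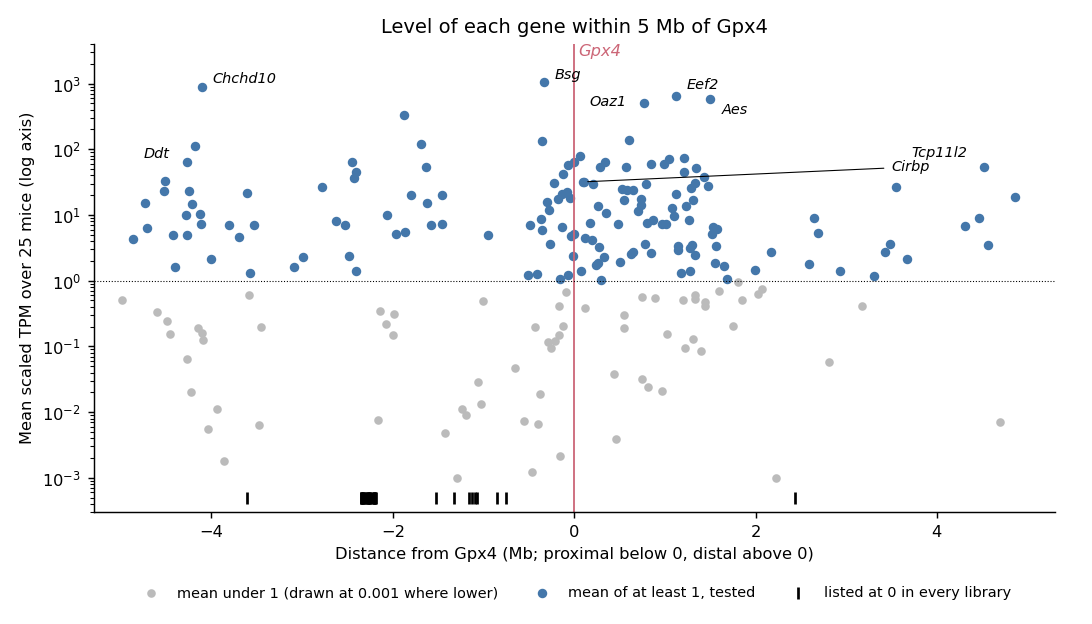
Mean scaled TPM over 25 mice (log axis) of each of the 257 genes against its distance from Gpx4 in Mb, with the 154 tested genes in blue, the 70 lower ones in grey and the 33 listed at 0 in every library as ticks at the bottom. Genes of every level lie on both sides of Gpx4, and most ticks fall in 1 block near 2.3 Mb on the proximal side.

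The first question was whether the neighbours of Gpx4 differed between GPx4+/- and WT hearts. None of the 154 was called, over both diets, on CNTL or on HFHS. The window did hold called genes, all among those left out by the rule: Gpx4, Tdg, 1190007I07Rik and Gm4924 over both diets and on HFHS, and the first 3 of them on CNTL. A count of 0 among the 154 is therefore partly set by the rule and is not a statement on every gene of the window. Gm4924, 1190007I07Rik and Tdg lie 2.3, 2.56 and 2.57 Mb from Gpx4. Over all genes the limma test called 0.0584%, 0.0501% and 0.0501% in these comparisons. At an unadjusted p under 0.05 there were 8, 11 and 6 of the 154, where all genes gave 3.89%, 6.29% and 4.58%. Over both diets, 2 of the 408 tested genes on the rest of chromosome 10 and 1 of 11399 on other chromosomes were called, and the remaining 4 of the 7 calls were the left-out genes of the window. The median size of the differences of the 154 was 0.0456 in absolute log2 fold change over both diets, beside 0.0429 over all genes tested.

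The nearest genes were looked at 1 by 1. Sbno2, a transcriptional coregulator, lies 553 bases from Gpx4 on the distal side, measured between the nearer ends of the genes. Its levels in WT CNTL were 5.506, 4.677, 5.539, 4.776 and 4.74 scaled TPM, and in GPx4+/- CNTL 5.269, 5.13, 4.695, 5.696 and 5.52. On HFHS, WT mice had 4.345, 5.44, 5.29, 6.135 and 4.757 and GPx4+/- mice 5.124, 5.857, 5.278, 4.205 and 5.224. The groups overlapped on both diets, and the means differed by less than their SDs (5.05 ± 0.435 against 5.26 ± 0.386 on CNTL, and 5.19 ± 0.683 against 5.14 ± 0.595 on HFHS; SD, n = 5). The log2 difference over both diets was 0.02 ± 0.06 (SE).

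On the proximal side the nearest was Polr2e, a subunit of RNA polymerase II, 7.371 kb from Gpx4. It had a mean of 65.6 ± 5.03 in WT CNTL and 61.2 ± 7.34 in GPx4+/- CNTL, and of 65.8 ± 4.43 and 63 ± 5.43 on HFHS. The log2 difference was -0.09 ± 0.06, with an adjusted p of 1. Of the other genes among the 5 nearest on each side, Arhgap45 and Cnn2, a calponin that binds actin, differed by 0.05 ± 0.09 and -0.04 ± 0.07. Tmem259, which encodes the ER membrane protein membralin, differed by -0.08 ± 0.05, and Stk11, the kinase LKB1 that activates AMPK, by -0.04 ± 0.04. Cbarp, a regulator of calcium channels, differed by -0.17 ± 0.15, Midn by -0.05 ± 0.06 and Cirbp by -0.02 ± 0.07. Abca7, a lipid transporter, was at -0.02 ± 0.05 over both diets, with 0.11 ± 0.07 on CNTL and -0.14 ± 0.07 on HFHS. None of the 10 was called for genotype under any alternative setting tried.

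**Figure D2:**
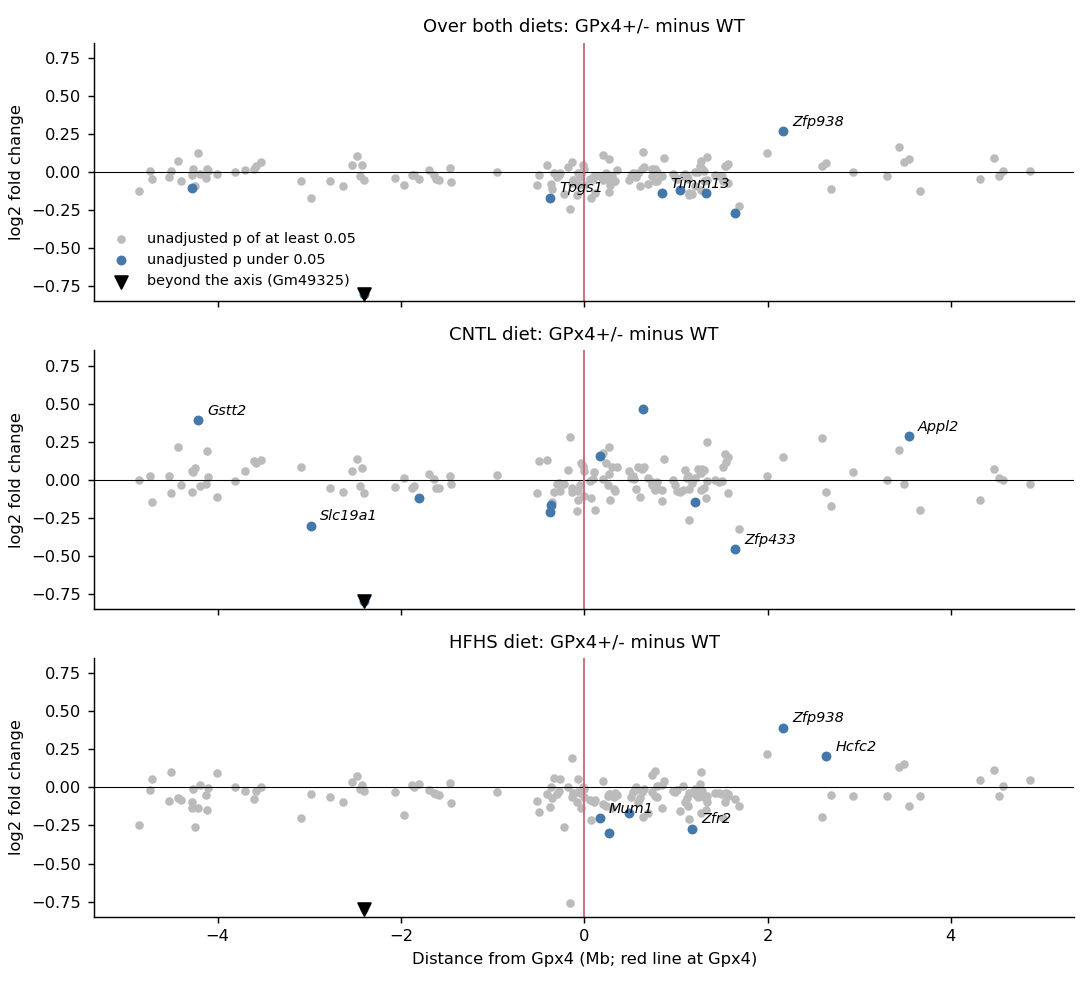
Log2 fold change (GPx4+/- minus WT) of the 154 tested genes against distance from Gpx4 in Mb, over both diets, on CNTL and on HFHS, with genes at an unadjusted p under 0.05 in blue and Gm49325, which lies beyond the axis, as a triangle. None of the plotted genes passed the adjusted threshold, and plotted genes with larger differences lay at many distances. The called genes left out by the rule are not plotted.

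Zfp938, a zinc finger gene 2.17 Mb distal to Gpx4, came closest to a call. On HFHS its levels were 2.185, 2.03, 2.387, 2.331 and 2.171 scaled TPM in WT mice and 2.717, 3.885, 2.993, 2.695 and 3.175 in GPx4+/- mice. Every GPx4+/- mouse was above every WT mouse, in a gene chosen for its small p (exact permutation p = 0.00794, uncorrected). On CNTL the values were 2.702, 2.7, 3.165, 2.613 and 2.311 in WT and 3.056, 2.685, 3.396, 2.783 and 3.284 in GPx4+/-, and the groups overlapped. The log2 difference was 0.39 ± 0.09 on HFHS (adjusted p = 0.333) and 0.27 ± 0.06 over both diets (adjusted p = 0.646), and the difference between the diets was not called either (0.25 ± 0.13, adjusted p = 0.695).

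The other genes with the smallest p changed from diet to diet. On CNTL, the glutathione S-transferase gene Gstt2 had a log2 difference of 0.39 ± 0.14 (adjusted p = 0.728), with 16.08, 11.62, 11.55, 10.96 and 14.01 scaled TPM in WT and 15.76, 16.24, 16.45, 21.32 and 14.96 in GPx4+/-. The highest WT value lay within the range of the GPx4+/- mice, and on HFHS the difference was -0.14 ± 0.14. Appl2, an endosomal adaptor protein, was at 0.29 ± 0.12 on CNTL (26.3 ± 2.92 against 32.5 ± 5.89) and -0.12 ± 0.12 on HFHS. Izumo4, of the Izumo sperm protein family, had the highest fold change on CNTL (0.46, adjusted p = 0.784), with 2.26 ± 0.56 against 3.33 ± 0.945. Zfp433, another zinc finger gene, was at -0.46 ± 0.16 on CNTL (2.05 ± 0.381 against 1.36 ± 0.342) and -0.07 ± 0.16 on HFHS. Its transcript is 99.87% identical to one of Gm32687, so its reads could have been shared.

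Mum1, which encodes a chromatin-associated PWWP-domain protein, lies 0.17 Mb from Gpx4 and had the smallest p for a genotype effect that differed between diets. On HFHS it read 7.821, 7.369, 7.589, 9.445 and 8.247 scaled TPM in WT and 7.337, 6.879, 6.649, 7.047 and 6.797 in GPx4+/-, without overlap (exact permutation p = 0.00794, uncorrected in a gene chosen for its small p). On CNTL the WT mean was 7.09 ± 0.92 and the GPx4+/- mean 7.92 ± 0.327. The log2 differences of -0.20 ± 0.07 and 0.16 ± 0.07 had opposite signs, but their difference of -0.36 ± 0.10 was not called (adjusted p = 0.649). For this comparison, genotype by diet, 0 of the 154 and 0% of all genes were called by limma, and 9 of the 154 had an unadjusted p under 0.05 beside 7.15% of all genes. Gstt2 (-0.53 ± 0.19) and Abca7 (-0.25 ± 0.10) followed Mum1.

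The lowest fold change for genotype over both diets was that of Gm49325 (-1.39 ± 0.54, adjusted p = 1), a readthrough transcript that spans Sumo3 and Ube2g2. It was at 0 in 4 of 5 GPx4+/- CNTL mice, in 3 of 5 GPx4+/- HFHS mice, and also in 1 WT CNTL and 2 WT HFHS mice, and its sequence is identical to Sumo3 over 67.6% of its length. Tpgs1, a subunit of the enzyme that polyglutamylates tubulin, had the next smallest p over both diets (-0.17 ± 0.07, adjusted p = 1). The log2 differences of the mitochondrial import protein Timm13 (-0.14 ± 0.06), the kinase Map2k2 (-0.12 ± 0.05) and the hypusine hydroxylase Dohh (-0.13 ± 0.06) had unadjusted p under 0.05 as well.

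**Figure D3:**
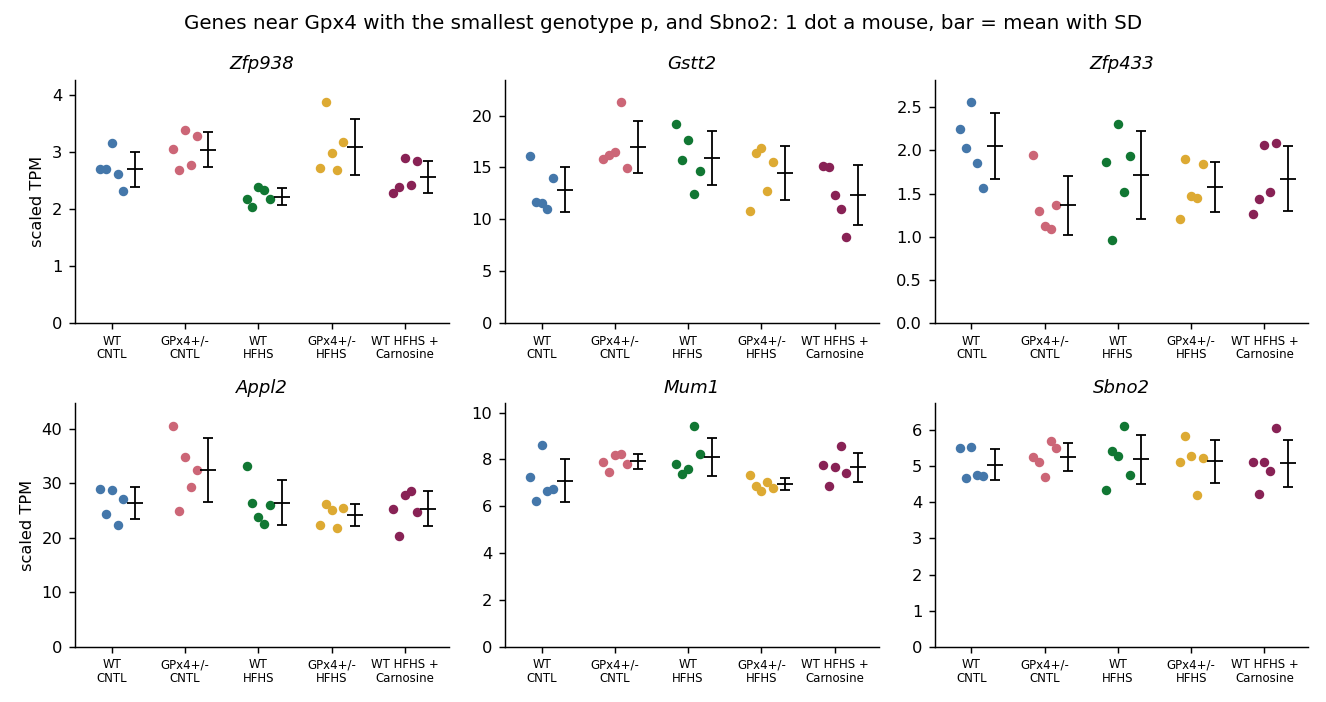
Scaled TPM of Zfp938, Gstt2, Zfp433, Appl2, Mum1 and Sbno2, 1 dot a mouse, with the mean and SD of each of the 5 groups as bars. Zfp938 and Mum1 do not overlap between genotypes on HFHS, and Sbno2, the gene next to Gpx4, overlaps throughout.

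The direction of the small differences was uneven. Over both diets 103 of the 154 were lower in GPx4+/- (median log2 fold change -0.0242, beside -0.00054 for all genes tested). On HFHS 115 were lower (median -0.0425) and on CNTL 82 (median -0.0058). Without GPx4+/- HFHS 2 the median on HFHS was -0.0249, with 102 lower, and without WT CNTL 5 or GPx4+/- CNTL 2 the median on CNTL was above 0 (0.00406 and 0.00251). Markers of other cells moved with genotype too, without a call. Smooth muscle markers were lower on HFHS (6 of 6, median -0.594), where WT HFHS 4 had a sum of 634.5 and the other WT HFHS mice 197.9 to 300.9. Over both diets hepatocyte markers (6 of 6, median 1.57) and macrophage and leukocyte markers (5 of 5, median 0.151) were higher in GPx4+/-. Atrial cardiomyocyte markers were higher on CNTL (5 of 6, median 0.976) and split evenly on HFHS (3 of 6 higher, median -0.0335). The hepatocyte sum was 1084, 78.95 and 41.35 in GPx4+/- CNTL 2 and GPx4+/- HFHS 1 and 3, and between 0.6859 and 8.49 in the other GPx4+/- libraries, beside 0.4057 to 3.806 in the WT libraries without carnosine. The part of these cells in the direction of the 154 was not tested. By distance, 33 of 41 genes within 0.5 Mb were lower over both diets (median -0.0429), 16 of 23 from 0.5 to 1 Mb, 33 of 49 from 1 to 2.5 Mb and 21 of 41 beyond 2.5 Mb (median -0.00107). On HFHS the medians of the 4 bands were -0.06, -0.0317, -0.0413 and -0.0493, and on CNTL 23 of the nearest 41 were lower. The carnosine comparison, in which all mice were WT, had 35 of the nearest 41 lower (median -0.0671) and 22 of 41 beyond 2.5 Mb (median -0.0139). These counts describe genes that share libraries, and they were not tested.

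GC content moved with this direction. The most abundant transcripts of the 154 genes had a median GC content of 57.2%, beside 50.7% for all genes tested, and 104 of the 154 fell in the highest GC quartile of all genes. In that quartile, 75% of all 2994 genes anywhere in the genome were lower in GPx4+/- HFHS than in WT HFHS (median -0.0538), and so were 82 of the 104 neighbours of Gpx4 (median -0.0538). On HFHS the neighbours in the other quartiles had lower medians than all genes of like GC content. There, 6 of 9 in the lowest quartile were lower (median -0.0493, beside 27.7% of all genes and 0.0539), 9 of 15 in the second (-0.0247, beside 42% and 0.0166) and 18 of 26 in the third (-0.0323, beside 59.6% and -0.0186). Over both diets the shares were 70.7% of all genes and 76 of 104, and on CNTL 52.1% and 58 of 104. Across all genes tested, the Spearman correlation between GC content and the genotype difference was -0.396 on HFHS and -0.0122 on CNTL, and across the 154 alone it was -0.204 and -0.0411. Genes are not independent replicates, and the correlation is given as a description.

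Single libraries differed in the same respect. In all 5 WT HFHS mice the median deviation of the 154 genes from their own means was above 0 (0.0171 to 0.0392 on the log2 scale, with 56 to 68 of the 154 under their means), and GC-rich genes of the whole genome were high too (Spearman correlation of GC content with deviation, 0.0279 to 0.308). The lowest library was GPx4+/- HFHS 2, with a median deviation of -0.092, 114 of 154 genes under their means and a Spearman correlation of -0.42. It also had the largest share of mitochondrially encoded transcripts, 48.7% of its TPM, where the others had between 31.3% and 45%. When the trend with GC content was removed from each library, an alternative chosen after seeing the data, 73 of the 154 were lower in GPx4+/- on HFHS (median 0.00446) and 80 over both diets (median -0.00429).

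**Figure D4:**
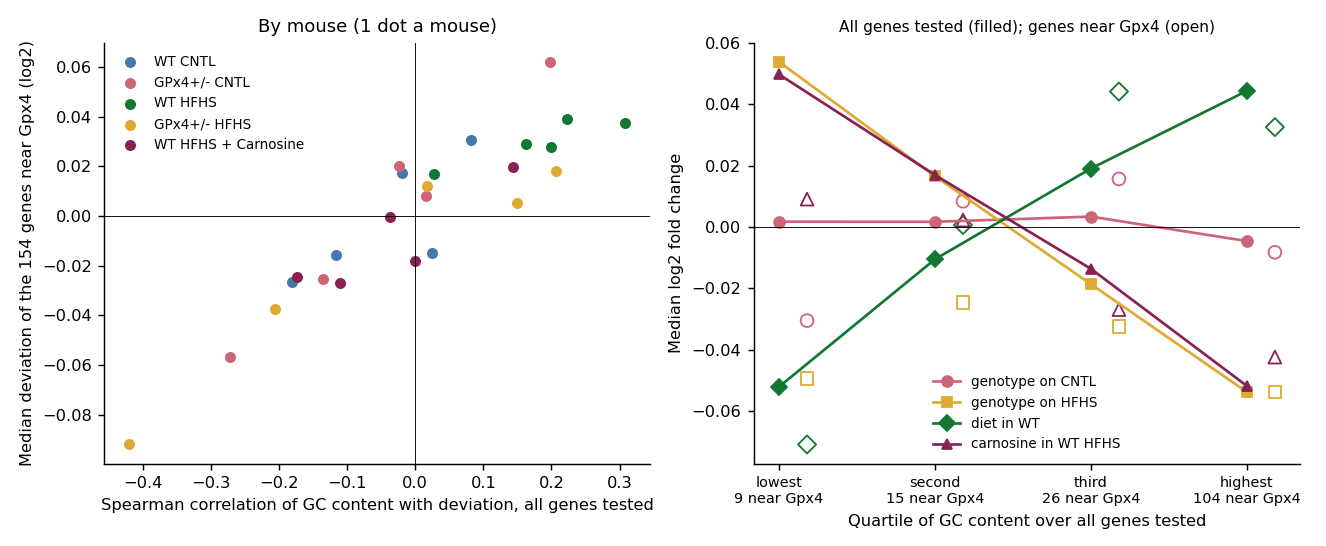
Left: for each mouse, the median deviation of the 154 genes from their means (log2) against the Spearman correlation of GC content with deviation over all genes tested. Right: median log2 fold change of all genes tested by quartile of GC content (filled symbols) for 4 comparisons, with the 9, 15, 26 and 104 neighbours of Gpx4 in these quartiles as open symbols. On HFHS open and filled symbols lie at -0.0538 in the highest quartile, while in the lowest they lie at -0.0493 and 0.0539.

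The diet changed some of these genes in both genotypes. Over both genotypes 9 of the 154 were called (5.84%), 3 higher and 6 lower on HFHS, where 8.33% of all genes tested were called (4.68% higher and 3.65% lower). The share of the 154 was not above that background. Within WT, 2 genes were called, both lower (background 1.19%, with 0.526% lower). Within GPx4+/- 4 genes were called, all lower (background 3.34%, with 1.16% lower). Pfkl, a gene of the window left out by the rule, was called higher by limma. Its log2 fold change was 0.34 over both genotypes (adjusted p = 0.000258) and 0.41 in GPx4+/- (adjusted p = 0.00304). The counts and directions among the 154 are therefore partly set by the rule. At an unadjusted p under 0.05 there were 29 over both genotypes, beside 24.5% of all genes. The count over both genotypes was 5 without WT HFHS 2, WT HFHS 4, GPx4+/- HFHS 4 or GPx4+/- HFHS 5. The median log2 fold change of the 154 was 0.00146 over both genotypes, and 75 were lower.

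Ddt had the smallest p. It encodes D-dopachrome tautomerase, the paralogue of the cytokine Mif, and lies at chr10:75771230-75773414 on the minus strand, 4.27 Mb proximal to Gpx4. Its levels were 74.54, 76.78, 74.37, 74.34 and 80.11 scaled TPM in WT CNTL and 61.93, 58.62, 62.39, 56.5 and 64.31 in WT HFHS. In GPx4+/- mice they were 72.83, 76.26, 66.79, 86.22 and 60.21 on CNTL and 61.09, 52.57, 53.63, 56.15 and 53.46 on HFHS. All WT HFHS mice were under all WT CNTL mice (exact permutation p = 0.00794), at 79.9% of their mean. In GPx4+/- the mean on HFHS was 76.4% of that on CNTL, and only the lowest CNTL mouse overlapped the highest HFHS mouse (exact permutation p = 0.0159). The log2 fold change was -0.35 ± 0.05 (adjusted p = 0.000306), -0.32 in WT (adjusted p = 0.0322) and -0.38 in GPx4+/- (adjusted p = 0.00663, or -0.35 and 0.0622 without the libraries with high atrial markers). The call in WT was lost without WT CNTL 1, 2, 4 or 5 or WT HFHS 2, 3 or 4. Mif, its neighbour at 4.19 Mb, was at 112.7 scaled TPM and -0.01 ± 0.07. Carnosine mice had Ddt levels of 49.36, 68.86, 63.46, 63.92 and 52.71, and the groups overlapped (-0.04 ± 0.09, adjusted p = 0.977). A predicted gene, Gm20441, overlaps Ddt on the same strand over 1964 bases, so reads could have been shared between them.

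Tcp11l2, a t-complex 11-like gene at chr10:84576626-84614359, 4.52 Mb distal to Gpx4, had the largest called change. WT CNTL mice had 65.07, 70.13, 46.93, 70.74 and 73.97 scaled TPM and WT HFHS mice 47.09, 41.37, 34.88, 38.43 and 59.45. GPx4+/- mice had 57.22, 56.54, 71.15, 74.71 and 67.12 on CNTL and 36.26, 40.36, 48.58, 42.85 and 41.46 on HFHS. The GPx4+/- groups did not overlap (exact permutation p = 0.00794), and the WT groups overlapped through 1 low CNTL mouse and 2 HFHS mice (exact permutation p = 0.0238). The log2 fold change was -0.60 ± 0.10 over both genotypes (adjusted p = 0.00067), -0.56 in WT (adjusted p = 0.0459) and -0.63 in GPx4+/- (adjusted p = 0.0137). The call in WT was lost without WT CNTL 1, 2, 4 or 5 or WT HFHS 1, 2, 3 or 4. With carnosine the mean was 47.5 ± 5.89, beside 44.3 ± 9.61 without.

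Cirbp, the cold-inducible RNA-binding protein, was called and is also among the nearest genes to Gpx4, at chr10:80165985-80172786, 109.55 kb distal. It read 32.8, 34.63, 43.66, 36.35 and 37.99 scaled TPM in WT CNTL and 30.67, 31.1, 30.5, 24 and 30.71 in WT HFHS. In GPx4+/- it read 41.47, 32.69, 40.53, 43.4 and 34.06 on CNTL and 26.27, 28.12, 27.53, 33.09 and 22.63 on HFHS. The WT groups did not overlap (exact permutation p = 0.00794), and in GPx4+/- 1 HFHS mouse was above the lowest CNTL mouse (exact permutation p = 0.0159). The log2 fold change was -0.40 ± 0.07 over both genotypes (adjusted p = 0.0019) and -0.48 ± 0.10 in GPx4+/- (adjusted p = 0.0144), and in WT it was -0.33 ± 0.10 without a call (adjusted p = 0.114). The difference between the genotypes was -0.15 ± 0.15 and was not called, so the missed call in WT does not show that the diet acted differently there. Carnosine mice had 30.48, 27.93, 27.46, 30.2 and 19.94, within or under the range of WT HFHS.

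The stretches before Ddt and Cirbp are shown because both genes fell with diet and RefSeq gives each a start site. They come from RefSeq (GRCm38.p6) and run 5′ to 3′ up to the first base that GENCODE counts as exon. Capitals mark an E-box (CACGTG) and a GC box (GGGCGG, or CCGCCC on the other strand), the motifs found there among 6 that were searched on both strands. Ddt is chr10:75773415-75773624 on the minus strand. Cirbp is chr10:80167589-80167777 on the plus strand, inside the span of the GENCODE gene, which has further starts upstream.
Ddt: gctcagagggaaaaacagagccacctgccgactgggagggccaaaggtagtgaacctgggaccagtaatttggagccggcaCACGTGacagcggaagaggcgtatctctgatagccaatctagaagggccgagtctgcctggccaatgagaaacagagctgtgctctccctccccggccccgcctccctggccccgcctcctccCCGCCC
Cirbp: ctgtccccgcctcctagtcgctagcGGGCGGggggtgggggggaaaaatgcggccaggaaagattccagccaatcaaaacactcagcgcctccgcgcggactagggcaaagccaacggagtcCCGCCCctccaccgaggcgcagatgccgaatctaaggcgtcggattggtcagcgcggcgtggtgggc

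The 250 bases before the RefSeq start of Ddt held 1 E-box and 1 GC box at 62.8% GC, and those of Cirbp 3 GC boxes at 65.6% GC. The same window of Tcp11l2 lies inside an exon of the GENCODE gene and held none of the 6 motifs. GC boxes are common: they were in 32.9% of 27025 promoters, in 60.1% of the 9103 of genes tested and in 69.6% of the 125 that matched the 154 genes. E-boxes were in 6.05%, 8.58% and 11.2%. The antioxidant response element core (TGACNNNGC) was in 10.1%, 12.2% and 15.2%, the cyclic AMP response element (TGACGTCA) in 1.62%, 2.7% and 3.2%, and the heat shock element core (GAANNTTC) in 6.78%, 4.79% and 2.4%. The FOXO site (GTAAACA) was in 3.09% of all promoters, in 2.07% of those of genes tested and in 0 of the 125. Of the other genes called for diet, Zfr2 held a cyclic AMP response element and an E-box beside GC boxes, Adamtsl5 an antioxidant response element core and a GC box, and Plk5 and Shc2 only GC boxes. Susd2 and Pcsk4 had no entry. A match of letters is a description and not a bound site.

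The other genes that fell were low. Zfr2, a zinc finger RNA-binding protein, had means of 1.6 ± 0.31 and 1.55 ± 0.135 on CNTL (WT and GPx4+/-) and 1.32 ± 0.0889 and 1.02 ± 0.205 on HFHS. Its log2 fold change was -0.32 ± 0.08 (adjusted p = 0.0166), and in GPx4+/-, where it was called, -0.45 ± 0.11 (adjusted p = 0.036). The call in GPx4+/- was lost without GPx4+/- CNTL 1, 3, 4 or 5 or GPx4+/- HFHS 1, 4 or 5. The 5 GPx4+/- HFHS mice, at 1.108, 1.148, 1.23, 0.7852 and 0.8076, were all under the 5 GPx4+/- CNTL mice, at 1.713, 1.38, 1.661, 1.484 and 1.525. Plk5, a polo-like kinase, changed by -0.34 ± 0.10 (adjusted p = 0.0407) and Pcsk4, a proprotein convertase, by -0.32 ± 0.10 (adjusted p = 0.047). For Pcsk4 the GPx4+/- groups did not overlap (2.32 ± 0.343 on CNTL and 1.5 ± 0.163 on HFHS), and the WT groups did.

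The genes that rose were Susd2, Adamtsl5 and Shc2. Susd2, which encodes a membrane protein with a sushi domain, had 1.202, 1.442, 1.378, 1.077 and 1.067 scaled TPM in GPx4+/- CNTL and 1.797, 1.558, 1.552, 1.841 and 2.609 in GPx4+/- HFHS, without overlap. In WT it had 1.004, 1.255, 1.629, 1.268 and 1.234 on CNTL and 1.168, 2.204, 1.666, 2.888 and 2.358 on HFHS, and 1 HFHS mouse lay within the CNTL range. The log2 fold change was 0.47 ± 0.11 (adjusted p = 0.0155). Adamtsl5, a secreted matrix protein that binds microfibrils, was far more abundant, at 51.7 ± 2.57 and 47.5 ± 6.02 on CNTL and 58.9 ± 8.16 and 57 ± 4.58 on HFHS (0.22 ± 0.07, adjusted p = 0.0407). Shc2, an adaptor of receptor tyrosine kinases, changed by 0.25 ± 0.08 (adjusted p = 0.0456), from means of 1.03 and 1.17 on CNTL to 1.45 and 1.37 on HFHS. Only Ddt, Tcp11l2 and Cirbp were called for diet in each of 31 alternative fits; Susd2 was called in 28 of 30 and Zfr2 in 28 of 29, and Adamtsl5 in 13 of 31, Plk5 in 13 of 29, Pcsk4 in 10 of 30 and Shc2 in 9 of 29.

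Marker genes of cell types also moved with the diet. Of 8 cardiomyocyte markers 2 were called lower on HFHS (median of the 8, -0.118), and of 5 fibroblast markers 2 were called higher (median 0.289). The atrial cardiomyocyte markers had a median of -0.901 (6 of 6 lower) and the smooth muscle markers of 0.573 (5 of 6 higher). Single libraries stood apart in both. The atrial sum was 4638 in WT CNTL 3, 7444 and 1499 in GPx4+/- CNTL 1 and 2, and 2729 in GPx4+/- HFHS 4. The smooth muscle sum was 634.5 in WT HFHS 4, beside 197.9 to 300.9 in the other WT HFHS mice. Hepatocyte markers had a median of -0.329 (6 of 6 lower) and macrophage and leukocyte markers of 0.109 (5 of 5 higher), with no single marker of these 4 lists past the adjusted threshold. The summed fibroblast markers ranged from 243 to 466 in WT CNTL and from 300 to 524 in WT HFHS, and no marker of either list was at 0 in every library. The part of these shifts in the changes of Ddt, Tcp11l2, Cirbp and the others was not tested. Without the libraries with high atrial markers, an alternative chosen after seeing the data, Ddt, Tcp11l2, Cirbp and Susd2 were still called among 7 genes, and Zfr2, Adamtsl5, Plk5, Shc2 and Pcsk4 were not. With fewer mice their log2 fold changes were -0.27, 0.23, -0.35, 0.30 and -0.30, beside -0.32, 0.22, -0.34, 0.25 and -0.32 with all. Within 1 genotype this ended the call of Ddt in WT (-0.33, adjusted p = 0.0532) and in GPx4+/- (-0.35, adjusted p = 0.0622) and of Zfr2 in GPx4+/- (-0.39, adjusted p = 0.136), at fold changes close to those with all mice, while Tcp11l2 stayed called in both and Cirbp in GPx4+/-.

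**Figure D5:**
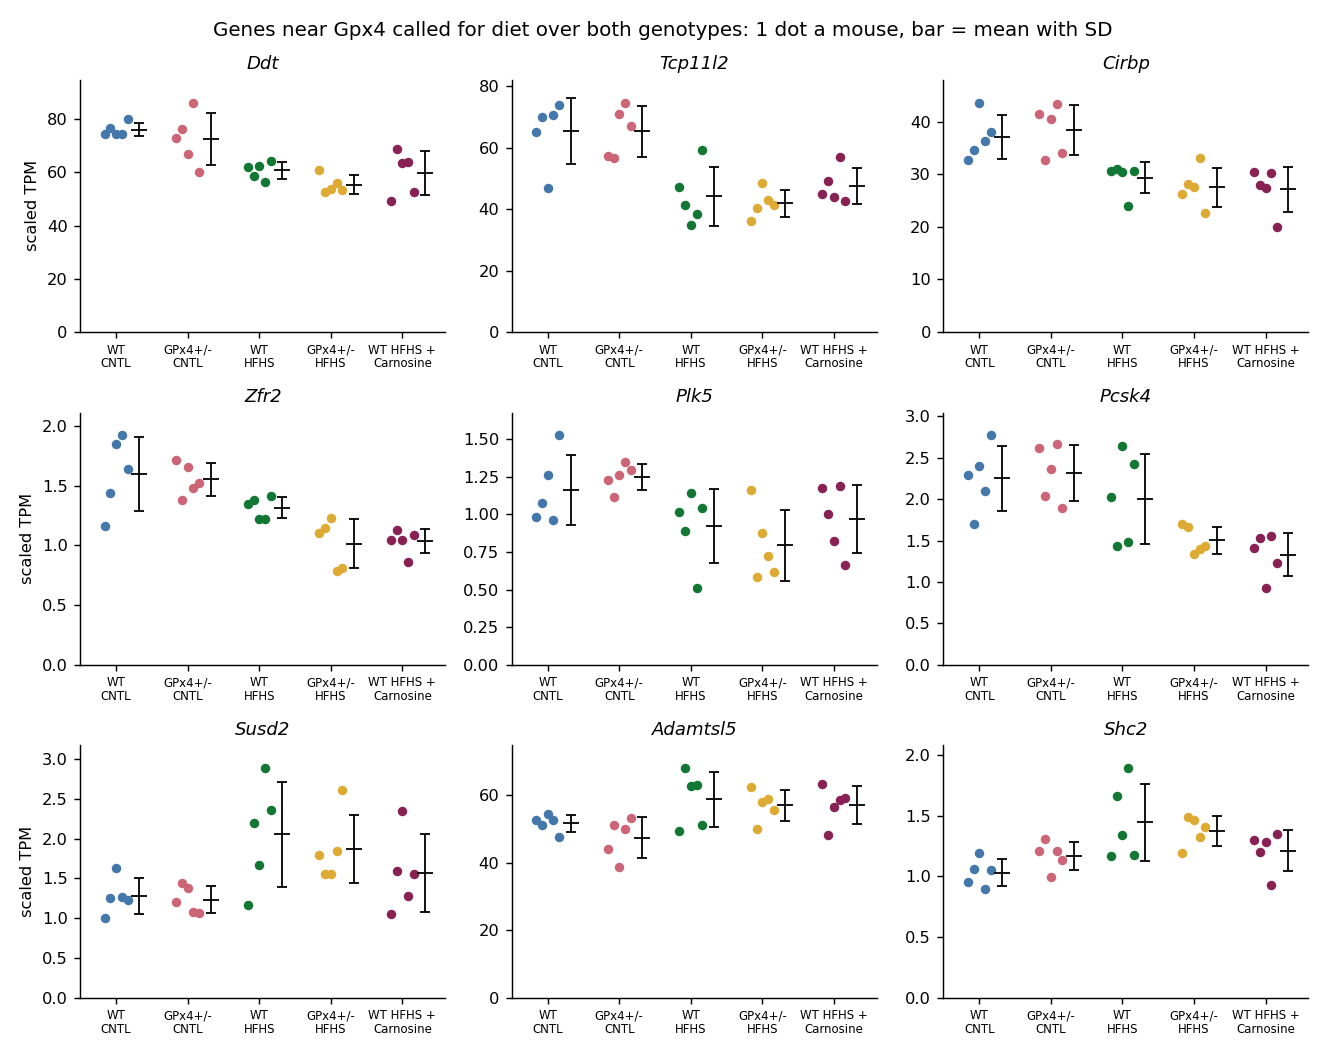
Scaled TPM of the 9 genes of the 154 called for diet over both genotypes, 1 dot a mouse, with the mean and SD of each of the 5 groups as bars. Ddt, Tcp11l2, Cirbp, Zfr2, Plk5 and Pcsk4 were lower and Susd2, Adamtsl5 and Shc2 higher on HFHS over both genotypes, and the WT HFHS + Carnosine mice overlap WT HFHS for all but Zfr2.

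Transcripts were tested singly as well. Of 312 transcripts of these genes, 6 were called for diet over both genotypes, beside 3.05% of 23320 over all genes. They included the main transcripts of Ddt (97.7% of the gene's level), Tcp11l2 (98.6%) and Cirbp (66.9%), and 1 each of Adamtsl5 and Smarcb1. The last was a minor transcript of Bsg, ENSMUST00000105381.4, which made up 1.5% of the gene and had means of 20.1 ± 6.35 and 20.5 ± 4.13 scaled TPM on CNTL and 10.1 ± 1.68 and 12 ± 6.57 on HFHS (WT and GPx4+/-; log2 fold change -0.90, adjusted p = 0.0118), while Bsg as a whole was at -0.00061 ± 0.06. The split of reads between similar transcripts is an estimate.

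Grouped by function, 0 to 2 genes of a group were called for diet over both genotypes, where 8.33% of all genes tested were called (4.68% higher and 3.65% lower) and 24.5% had an unadjusted p under 0.05. The lists were drawn up for this stretch of the chromosome with results of these data known. Of 7 tested genes around glutathione and small-molecule conjugation, 1 was called higher (Susd2, a membrane protein that is not a glutathione enzyme) and 1 lower (Ddt, a tautomerase). The glutathione S-transferases Gstt1, Gstt2 and Gstt3 were not called, at 0.15 ± 0.12, 0.04 ± 0.10 and 0.02 ± 0.08. Of 21 transcription and chromatin genes 1 was called lower (Zfr2), and the abundant Aes, Mbd3, a subunit of the NuRD complex, and Polr2e were at 0.07 ± 0.04, 0.11 ± 0.04 and 0.03 ± 0.06. Of 16 RNA processing genes 1 was called lower (Cirbp), with the splicing protein Snrpd3 at 0.06 ± 0.04 and Rrp1, a ribosome biogenesis factor, at -0.08 ± 0.03.

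None of 13 genes of mitochondria and metabolism was called by limma, and 5 had an unadjusted p under 0.05 (24.5% of all genes did). Chchd10 was at -0.04 ± 0.05, the mitochondrial ribosomal gene Mrpl54 at 0.06 ± 0.05, and Agpat3, an acyltransferase of phospholipid synthesis, at 0.16 ± 0.06 (adjusted p = 0.0742). Of 17 kinase, G protein and receptor genes 1 was called lower (Plk5), and Mknk2, Stk11 and Map2k2 were at 0.04 ± 0.06, -0.07 ± 0.04 and 0.08 ± 0.05. None of 15 genes of translation, folding and protein turnover was called (3 with an unadjusted p under 0.05), among them Eef2 at -0.02 ± 0.03 and Oaz1 at 0.10 ± 0.04. Of 13 matrix, adhesion and secreted protein genes 1 was called higher (Adamtsl5). None of 4 tested immune cell genes was called (0 with an unadjusted p under 0.05), while 7 of the 11 immune genes were too low to test, such as the neutrophil protease gene Elane at 0.00213. None of these groups had a call for genotype over both diets, where each had 0 or 1 genes at an unadjusted p under 0.05.

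Carnosine was compared within WT HFHS. None of the 154 genes and 0% of all genes tested were called by limma, and 14 of the 154 had an unadjusted p under 0.05, 1 higher and 13 lower, beside 4.21% of all genes (1.95% higher and 2.26% lower). Nfic, a transcription factor of the nuclear factor I family, had the smallest p, with 54.48, 59.98, 54.47, 57.79 and 53.09 scaled TPM without carnosine and 55.31, 44.52, 43.55, 51.67 and 46.37 with it. One carnosine mouse lay within the range of the untreated mice, and the log2 difference was -0.22 ± 0.07 (adjusted p = 0.948). Syde1 did not overlap between the groups (7.63 ± 0.643 against 6.6 ± 0.261, exact permutation p = 0.00794, again uncorrected), with a difference of -0.19 ± 0.07 (adjusted p = 0.948). Palm, the membrane protein paralemmin, was at -0.28 ± 0.10 (adjusted p = 0.948). Zfr2, at 1.048, 1.126, 1.049, 0.8644 and 1.089 with carnosine, lay under all 5 WT HFHS mice (1.345, 1.382, 1.219, 1.225 and 1.41), at -0.24 ± 0.09 and an adjusted p of 0.948. Smooth muscle markers (6 of 6 lower, median -0.84) and fibroblast markers (5 of 5 lower, median -0.199) were lower with carnosine as well, without a call. So were 5 of 6 atrial markers. Macrophage and leukocyte (5 of 5), endothelial (4 of 5), hepatocyte (5 of 6) and cardiomyocyte markers (6 of 8) were mostly higher. Among untreated mice WT HFHS 4 stood apart, with a smooth muscle sum of 634.5 (others 197.9 to 300.9). Its fibroblast sum was 524.1 (others 299.6 to 403.3). The part of these cells in the differences was not tested. The highest fold change was that of Ckap4, an endoplasmic reticulum membrane protein (0.26, adjusted p = 0.948), through 1 mouse at 17.75. In this comparison 100 of the 154 were lower (median -0.0328). Of the 154, 35.1% were higher, beside 49.6% of all genes tested (median -0.00119). In the highest GC quartile 72 of the 104 neighbours of Gpx4 were lower (median -0.0424), beside 73.7% of all genes (median -0.0518). In the lowest quartile 4 of 9 were lower, beside 30.1%, in the second 7 of 15, beside 41.6%, and in the third 17 of 26, beside 56.3%. With the trend with GC content removed, 58 of the 154 were lower.

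A few genes followed single libraries and not a group. Cfd, which encodes the adipocyte protease adipsin, lies 0.155 Mb from Gpx4 and had the lowest log2 difference for genotype by diet (-1.04 ± 1.13) and for carnosine (-0.99 ± 0.51). It was highest in 4 libraries, WT CNTL 3 at 8.021, GPx4+/- CNTL 1 at 5.056, WT HFHS 4 at 2.451 and GPx4+/- HFHS 4 at 2.438, and 9 mice were listed at 0. Adipoq, which encodes adiponectin, was at 3.015, 1.61, 0.891 and 3.172 in the same libraries, while WT HFHS + Carnosine 2 had 0.9691 with Cfd at 0.3992. The liver genes Ftcd, Upb1 and Creb3l3, all under the limit for testing, had their highest values in GPx4+/- CNTL 2, at 2.436, 1.184 and 2.282, where albumin (Alb) was at 736.4. The gene 2610028H24Rik was highest in GPx4+/- CNTL 1 (3.418), WT CNTL 3 (2.827) and GPx4+/- CNTL 2 (1.101), which are among the libraries with high atrial markers. The part of other tissue in these values was not tested.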

How the data were processed

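RNA of heart (myocardial) tissue was sequenced from 25 mice (stranded polyA libraries). The authors deposited TPM per transcript, 119215 transcripts summing to 1000000 in each library. The submitters' processing notes name kallisto 0.43.1, sleuth 0.30.0 and GRCm38, whereas the study's methods describe STAR and DESeq2 on gene counts; the deposited values were used as they are. TPM keeps no read depth, so no counting error can be given.

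Groups came from the sample labels. The labels give each sample a library name and a column position, and these disagree; columns were mapped by the library name, which the header repeats, and under this mapping Gpx4 separated all WT from all GPx4+/- libraries. Transcripts were summed per gene with GENCODE M21 (116684 matched, 2531 did not) and scaled by median ratios (factors 0.864 to 1.16, from 11872 genes). Genes with a mean of at least 1 were tested with limma 3.58.1 (R 4.3.3, empirical Bayes with trend) on log2(scaled TPM + 0.5), with Benjamini-Hochberg adjustment over all 11977 genes. The 4 groups without carnosine shared 1 fit and the carnosine comparison used its 10 mice. Exact permutation tests used scipy 1.17.1 in Python 3.11.15, and transcripts were compared with blastn 2.17.0. The model was first tested on simulated data.

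Gene counts could not be tested, since the file holds TPM. Named genes were the 5 nearest on each side of Gpx4; up to 10 called genes of a comparison, or the 3 with the smallest p; the lowest and highest fold change of each comparison; and up to 4 abundant genes of each functional group. Genes outside this rule were named after their values were seen: D10Jhu81e, Gstt3, Dohh, Elane, Ftcd, Upb1, Creb3l3, 2610028H24Rik, Smarcb1, and Gm3285 and Gm19402 as the ends of a block. Gm20441, Gm32687, Oaz1-ps, Sumo3 and Ube2g2 were named only as genes that share sequence or position with a named gene. The window, the gene lists and the tests were chosen with earlier results of these data known. Alternatives covered the pseudocount, the filter on low values, scaling, sample weights, blocking, the mice in the fit, single transcripts and single mice; removal of the GC trend and leaving out libraries with high atrial markers were added after seeing the data. GPx4+/- mice on HFHS with carnosine were not analysed here.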

Additional observations from a re-analysis of the deposited data

Results flagged for a closer look

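In groups of 5 mice, single values were compared with their group by the gap to the nearest other mouse over the group's whole range, against Dixon's critical value of 0.71. Over 32 genes and 160 groups of values, 13 stood apart, where chance alone gives about 1 in 20. Cfd, the adipsin gene, stood apart in 3 groups, being high in WT CNTL 3 (8.021 scaled TPM, next 1.174, ratio 0.854), GPx4+/- CNTL 1 (5.056, next 1.21, ratio 0.761) and GPx4+/- HFHS 4 (2.438, next 0.06117, ratio 0.975). These 3 libraries also had the highest Adipoq and were among those with high atrial markers. Cirbp was low in WT HFHS 4 (24, next 30.5, ratio 0.915) and in WT HFHS + Carnosine 5 (19.94, next 27.46, ratio 0.714); the call of Cirbp for diet over both genotypes held without WT HFHS 4, and the carnosine mouse was not in that fit. Gm49325 was high in GPx4+/- CNTL 2 (2.869, next 0, ratio 1) and GPx4+/- HFHS 4 (2.498, next 0.2242, ratio 0.91).

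The other 6 were single values. Tmem259 was high in WT HFHS + Carnosine 4 (63.01, next 54.3, ratio 0.809) and Ckap4 in WT HFHS + Carnosine 5 (17.75, next 9.984, ratio 0.726). Midn was low in GPx4+/- CNTL 4 (28.96, next 31.9, ratio 0.757), and Gstt2 was high in that library (21.32, next 16.45, ratio 0.766). Tpgs1 was high in WT HFHS 2 (10.47, next 9, ratio 0.749) and Susd2 in GPx4+/- HFHS 5 (2.609, next 1.841, ratio 0.726).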

How the results depend on the processing

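None of the 154 genes was called by limma for genotype (over both diets, on CNTL or on HFHS), for genotype by diet or for carnosine under any alternative, fits without 1 mouse included. For diet over both genotypes the 9 calls became 5 with no filter on low values and 5 with a mean of at least 5. Over all genes these called 723 of 25838 (2.80%) and 860 of 8098 (10.6%). Susd2, Zfr2, Plk5, Shc2 and Pcsk4 had means under 5 and were not in the latter fit, whose calls were not all among the 9. Fits without 1 mouse gave 5 to 12. The 2 calls for diet in WT became 0 with no filter, with TPM as deposited and with single transcripts, 1 with all 25 mice in 1 fit and 1 with the GC trend removed, and 0 to 3 without 1 mouse. The 4 calls in GPx4+/- became 2 with single transcripts, and 3 to 5 without 1 mouse. Without the libraries with high atrial markers the counts were 7, 2 and 3, but with fewer mice Ddt lost its calls in WT (log2 fold change -0.33) and GPx4+/- (-0.35) and Zfr2 its call in GPx4+/- (-0.39), all at similar fold changes. The cause of these shifts was not tested, beyond the genes kept out by a filter, the number of genes adjusted over and the mice left out.

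Equal replicate numbers did not pair the mice: 9 of 50 same-number pairs correlated over 0.1 (range -0.338 to 0.232), and 5 of 25 libraries were closest to one of their own number. With the replicate block the calls for diet were 6 over both genotypes, 0 in WT and 4 in GPx4+/-. Among 30 named genes and comparisons no fold change reversed: 271 values stayed on their side of the threshold and 41 lost the call, as did 374 and 76 without 1 mouse. With TPM as deposited the median of all genes was -0.101 for diet in GPx4+/- and -0.107 for genotype by diet, beside -0.00163 and -0.00447 as reported. For genotype on HFHS it was -0.0726, beside -0.00257, and 140 of the 154 genes were then lower in GPx4+/-. TPM gives no depth, so differences in low genes such as Zfr2, Plk5 and Shc2 have no counting error beside them.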
